A study of Mus musculus with 30 samples.

Results

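CALM/AF10 leukemia cells were profiled by RNA sequencing before treatment with the small molecule RG3039 and 6 h after it, with 3 samples at each time, which makes 6 of the 30 mouse samples of the study. The members were chosen by their column headings in the deposited gene table: 3 untreated controls (0 h) and 3 samples headed with 1 µM and 6 h. The cells are hematopoietic acute myeloid leukemia (AML) cells of strain C57BL/6 that carry the CALM/AF10 fusion, and the controls carry it too. RG3039 inhibits Dcps. The study also sampled the same leukemia cells at 10 h, and normal bone marrow granulocyte-macrophage progenitors (GMP, C57BL/6) at 0 h, 6 h and 10 h of RG3039, 3 samples each. The labels give no vehicle and no untreated sample taken at 6 h, so time in culture and the inhibitor cannot be told apart. The labels do not give the way the fusion was introduced, whether the cells are 1 clone, or whether the 3 samples of a group were separate cultures. P-values therefore measure the spread between these samples, which may be technical.

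Dcps is the scavenger decapping enzyme. When the exosome degrades an mRNA from its 3′ end, a short capped fragment is left over, and Dcps hydrolyses the cap of that fragment. This is separate from Dcp2, which removes the cap of a full mRNA before the exonuclease Xrn1 degrades it from the 5′ end. In the nucleus the cap is held by the cap-binding complex, whose partner Srrt (Ars2) links capped transcripts to splicing, 3′ end formation and decay. A cap that is not cleared can be bound by these proteins in place of an mRNA. Junctions that place a stop codon well before the last exon can send an mRNA to nonsense-mediated decay (NMD).

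Expression was read as TPM, the share of a sample's transcripts that a gene takes after correction for its length, as the authors gave it, and tested with limma on log2(TPM + 1), so a log2 change understates the change of low genes. A gene was called where the Benjamini-Hochberg adjusted p was under 0.05 over the 12531 genes with at least 1 TPM in 3 of the 6 samples. The 6 samples were alike in range, with 12296 to 12472 genes at 1 TPM or more and 17.1 to 18.8% of TPM in mitochondrially encoded genes. At 6 h, 688 genes (5.49%) were called higher and 924 (7.37%) lower than at 0 h, 12.9% in all. The median log2 change over all genes tested was −0.02. The values of the groups did not overlap in 33.8% of the genes tested, and in 1609 of the 1612 called genes. Scaling each sample to its median gene gave 982 higher and 754 lower, and quantile normalization 860 and 886, so the balance of rises and falls depends on the scaling. Without 6 h sample c, 610 genes were called lower. Only 66 rises and 91 falls were larger than 1 on the log2 scale. TPM gives shares of the RNA of a sample, so fewer cells of a type and less RNA per cell cannot be told apart.

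The cells held the defining transcripts of myeloid cells. Spi1, the master transcription factor of the myeloid lineage, had 261.5, 277.8 and 284.1 TPM at 0 h and 288.8, 295.7 and 282.4 TPM at 6 h, and Itgam (CD11b), Cebpa, Csf1r, Ptprc and Kit were present in all 6 samples. The cytokine receptor gene Flt3 was at or near 0, with at most 0.0455 TPM. The 13 myeloid markers together had 1140 to 1190 TPM at 0 h and 1120 to 1150 TPM at 6 h, and 3 of the 12 tested were called lower (Csf3r, Hoxa9 and Hoxa10). Pax5 of B cells, Hbb-bs of red cells, and Prg2 and Epx of eosinophils were at 0 in all 6 samples. The list of these 2 eosinophil genes also holds Mcpt8, Cpa3 and Ms4a2 of mast cells and basophils. It summed to 14.3 to 16.5 TPM at 0 h and 13.5 to 15.8 TPM at 6 h, and neither of its 2 tested genes was called. Of other lineages, the platelet chemokine Pf4 was abundant, at 187.5, 205.0 and 220.9 TPM and then 189.1, 191.9 and 174.8 TPM, with overlapping groups. Cd3d of the T cell receptor complex had 3.585 to 4.566 TPM at 0 h and 5.314 to 6.175 TPM at 6 h (log2 change 0.41 ± 0.11 (SE), limma adjusted p = 0.0374, and 0.0406 to 0.125 with 1 sample left out), while Cd3e was at most 0.0848 TPM. Pecam1, a marker of endothelium, was called lower (log2 change −0.25), with a limma adjusted p of 0.0281 to 0.109 with 1 sample left out. The part of these transcripts in the results was not tested.

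Dcps itself did not pass the test at 6 h. Its TPM was 14.69, 16.72 and 14.87 at 0 h and 18.99, 16.93 and 17.06 at 6 h. All 3 treated values lay above all 3 untreated ones, but the lowest treated value was close to the highest untreated one, and the log2 change was 0.18 ± 0.07 (SE, limma adjusted p = 0.13). RG3039 acts on the enzyme, so the transcript level is no check of the inhibition. The gene lies at chr9:35124408-35176061 on the minus strand (mm10, GENCODE M21). The splicing of its last intron did shift in the authors' deposited junction table. In that table a junction has a percent spliced in (PSI), which is the share of the reads at a splice site that use it, averaged over the 3 samples of a group by the authors. The 2 intron bases at chr9:35124845-35124846, next to the start of the last exon, went from 29% of the reads to 77%, with a deposited q of 6.58e-07 on mean read counts of 10 and 32. No annotated exon spans those bases.

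The steepest falls took genes of many functions far below their untreated level within 6 h. Among called genes with a mean of at least 5 TPM in the higher group, the 15 with the most negative log2 change ran from −2.80 to −1.51. None of these 15 had overlapping groups, and 8 of them share exon bases with another annotated gene.

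Apba1, an adaptor of the amyloid precursor protein, had 6.152, 6.036 and 6.054 TPM at 0 h and 0.09598, 0.0892 and 0.09301 TPM at 6 h. Every treated sample was near 0, and the log2 change of −2.70 ± 0.09 (SE, limma adjusted p = 1.05e-06) is held up by the pseudocount of 1. At 10 h its mean was 0.0862 TPM. Krcc1 had 13.82, 10.85 and 14.35 TPM and then 1.679, 1.332 and 1.271 TPM, a log2 change of −2.52 ± 0.14 (SE, limma adjusted p = 6.77e-06). Lclat1, an acyltransferase that remodels cardiolipin, had 7.373, 6.666 and 6.831 TPM and then 1.064, 0.8666 and 0.7406 TPM. The 3 treated samples stood far below the 3 untreated ones in both genes. Mettl8, a methyltransferase of mitochondrial tRNA, had 5.084, 6.111 and 5.689 TPM and then 0.8018, 0.6575 and 1.004 TPM (log2 change −1.87). The exons of Mettl8 overlap those of Dcaf17, and whether the authors counted by strand is not given in the sources used here.

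The other falls included a chromatin gene, a checkpoint kinase and regulators of membrane traffic. Mta1, a subunit of the NuRD histone deacetylase complex, had 35.03, 39.65 and 38.86 TPM at 0 h and 10.92, 11.57 and 11.32 TPM at 6 h (log2 change −1.66 ± 0.09 (SE), limma adjusted p = 5.18e-06). It was the most abundant of the 15 falls before treatment, and its treated values were close together. Iqsec2, an exchange factor of ARF GTPases, had 5.889, 5.983 and 5.845 TPM and then 1.394, 1.249 and 1.456 TPM. Tbc1d5, which inactivates the GTPase Rab7 in endosomal traffic, had 14.01, 15.19 and 15.97 TPM and then 4.1, 4.223 and 3.663 TPM. Aatk, a membrane kinase, had 14.67, 13.99 and 15.53 TPM and then 1.798, 1.974 and 2.147 TPM. The groups were far apart in each of these. Aff2, Cdca7l and Pam fell by 1.76, 1.60 and 1.52 on the log2 scale. Chek1, the kinase of the DNA replication checkpoint, had 7.509, 9.049 and 7.78 TPM and then 2.142, 2.391 and 2.033 TPM (log2 change −1.51 ± 0.16 (SE), limma adjusted p = 0.000266). At 10 h the Chek1 mean was 3.82 ± 1.08 TPM (SD, n = 3). The 10 h and 6 h changes share the 0 h samples, so their values are only set side by side here.

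**Figure D1:**
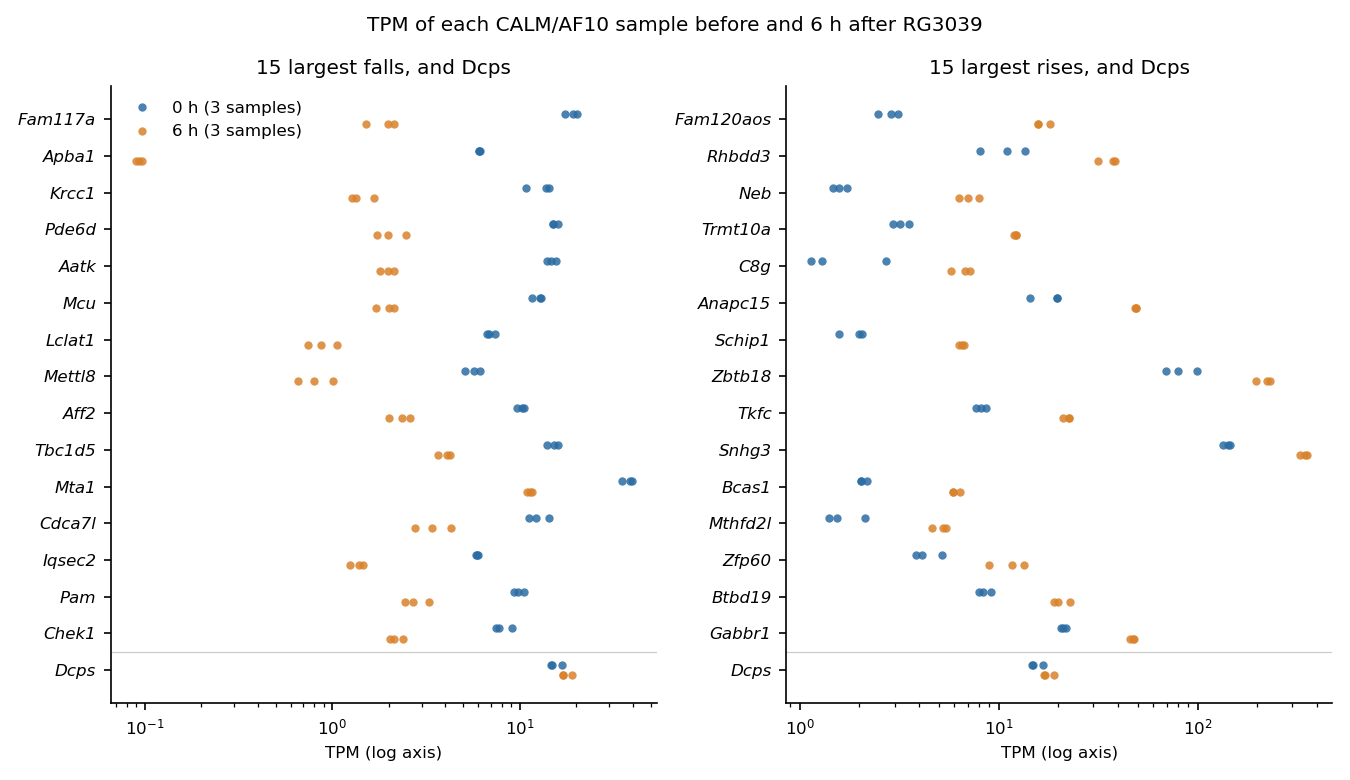
TPM (log axis) of each sample at 0 h (blue) and 6 h (orange) for the 15 largest falls (left) and rises (right), with Dcps at the foot of each panel. The groups do not overlap in any row, which was a condition for entering the 15 falls and 15 rises. Apba1 reaches values under 0.1 TPM at 6 h, while the Dcps points lie close together.

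The 15 steepest rises, picked in the same way as the falls, ran from 1.11 to 2.20 on the log2 scale and began mostly from low levels. Fam120aos, named for its position antisense to Fam120a, had 2.893, 2.479 and 3.141 TPM at 0 h and 18.15, 15.83 and 15.85 TPM at 6 h (log2 change 2.20 ± 0.08 (SE), limma adjusted p = 1.09e-06). Neb, which encodes the muscle filament protein nebulin, had 1.47, 1.734 and 1.576 TPM and then 7.004, 7.972 and 6.302 TPM. C8g, a chain of complement component 8, had 2.716, 1.141 and 1.297 TPM and then 5.767, 7.223 and 6.796 TPM. All treated samples lay above all untreated ones, as the choice of these genes required, and 0 h sample a of C8g stood above its group. Schip1 had 1.991, 1.57 and 2.066 TPM and then 6.586, 6.364 and 6.71 TPM, and its exons are shared with the fusion gene Iqschfp.

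Among better expressed genes, Zbtb18, a transcriptional repressor with zinc fingers, had 69.28, 98.9 and 79.82 TPM at 0 h and 223.1, 231.3 and 196.5 TPM at 6 h (log2 change 1.39 ± 0.11 (SE), limma adjusted p = 6.57e-05). Anapc15, a subunit of the anaphase-promoting complex, had 14.38, 19.77 and 19.72 TPM and then 49.13, 48.67 and 48.98 TPM. Gabbr1, a subunit of the GABA-B receptor, had 20.7, 21.1 and 21.81 TPM and then 47.62, 45.66 and 47.68 TPM. The treated values of Anapc15 and Gabbr1 were nearly equal, and their groups were well separated. Mthfd2l, a mitochondrial enzyme of folate metabolism, Btbd19, Bcas1 and the zinc finger gene Zfp60 rose by 1.19, 1.18, 1.20 and 1.19. The exons of 9 of the 15 rises overlap another annotated gene, such as Anapc15 with Tomt and Tkfc with Ddb1 and Cyb561a3.

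Among genes of cap metabolism and decapping, calls went in both directions. Shares called in these and the next lists are to be read against 5.49% higher and 7.37% lower over all genes tested. Of 22 tested genes of cap scavenging and nuclear cap binding, 1 (4.55%) was called higher and 1 (4.55%) lower, with a median log2 change of 0.01. Scaling to the median gene made 4 higher. The one that fell was Srrt, with 73.65, 78.25 and 81.12 TPM at 0 h and 37.93, 43.15 and 43.25 TPM at 6 h (log2 change −0.89 ± 0.06 (SE), limma adjusted p = 3.27e-05). The treated samples did not come near the untreated ones. Of 39 genes of decapping, deadenylation and 5′ decay, 5 (12.8%) were called higher and 2 (5.13%) lower, and the median was −0.01. Dcp2, the decapping enzyme of full mRNAs, had 41.44, 50.77 and 49.79 TPM and then 79.5, 76.79 and 73.65 TPM (log2 change 0.69 ± 0.08 (SE), limma adjusted p = 0.000655). Dcp1b, a decapping cofactor, went the other way, with 5.862, 7.212 and 5.938 TPM and then 2.229, 1.816 and 2.376 TPM (log2 change −1.22 ± 0.13 (SE), limma adjusted p = 0.000249). Neither gene had overlapping groups. At 10 h, Dcp2 had 99.9 ± 7.86 TPM and Dcp1b 1.87 ± 0.376 TPM (SD, n = 3).

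Among deadenylation genes, Parn, a poly(A) exonuclease that binds the cap, rose by 0.53, Cnot3 of the CCR4-NOT complex by 0.36 and the translational repressor Eif4enif1 by 0.36. Cnot3 had 144.5, 150.7 and 154.3 TPM at 0 h and 192.3, 191.6 and 192.9 TPM at 6 h. Zfp36l2, which binds AU-rich elements and recruits deadenylases, fell by 0.22, from 158.9, 159.4 and 160.6 TPM to 140.1, 137.2 and 133.5 TPM. The groups of Cnot3 and Zfp36l2 were apart, and the samples of each group lay close together. Of 25 genes of the RNA exosome, 2 (8%) were called lower and 0 higher by limma. At an unadjusted p under 0.05 these counts were 4 and 1. The median log2 change of the exosome genes was −0.07. Of the 25, 21 lay below 0, against 6887 of all 12531 genes tested. The Dis3 call was lost in every fit with 1 sample left out. The Dis3l2 call was lost without 0 h sample b or c, or without 6 h sample b or c. Of 20 NMD factors, 1 (5%) was called each way, neither of them in most fits with 1 sample left out. In the 13 genes of the SMN complex none was called by limma, with 1 lower at an unadjusted p under 0.05.

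The hosts of small nucleolar RNAs split. These transcripts are spliced for the snoRNAs in their introns, and their exons are often degraded in the cytoplasm. Of 15 tested, 2 (13.3%) were called higher and 6 (40%) lower, with a median log2 change of −0.25. Snhg3 had 135.0, 143.0 and 145.0 TPM at 0 h and 328.5, 355.6 and 345.7 TPM at 6 h (log2 change 1.28 ± 0.05 (SE), limma adjusted p = 1.09e-06). Snhg9 had 584.5, 535.2 and 539.9 TPM and then 1001.0, 1123.0 and 1075.0 TPM (log2 change 0.95 ± 0.05 (SE), limma adjusted p = 6.41e-06). Treated and untreated samples of both hosts were far apart. Snhg1 had 126.0, 109.9 and 124.3 TPM and then 80.52, 77.98 and 91.95 TPM (log2 change −0.52). Snhg5 fell by 0.58 and Snhg8 by 0.39. The rises of Snhg3 and Snhg9 were called in every alternative run. The lower count was 3 to 6 with 1 sample left out, being 3 without 0 h sample c, and scaling to the median gene also gave 3. Reads of the Snhg3 exons are shared with Rcc1 and Snora73a on the same strand. The exons of Snhg9 overlap those of Rps2 on the other strand. Whether the authors counted by strand is not given, so reads of Rps2 may enter the Snhg9 values.

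Regulators of splicing moved down where they moved. Of 64 tested SR proteins, hnRNPs and related factors, 11 (17.2%) were called lower and 0 higher by limma, against 20 and 3 at an unadjusted p under 0.05. The median log2 change was −0.04. Srsf4 had 23.98, 27.58 and 25.97 TPM at 0 h and 17.21, 18.22 and 20.9 TPM at 6 h (log2 change −0.44), and Mbnl3 had 8.572, 8.727 and 9.351 TPM and then 6.714, 6.439 and 7.124 TPM (log2 change −0.35). Both were separated between groups. The lower count was 4 to 8 with 1 sample left out, under 8 for every sample but 0 h sample b, and scaling to the median gene gave 3 higher and 8 lower. Of 73 core spliceosome genes, 1 (1.37%) was called higher and 1 (1.37%) lower, with a median of −0.01. In 3′ end processing and the Integrator complex, 4 of 34 genes (11.8%) were called higher and 3 (8.82%) lower. That lower count was 1 without 0 h sample a or any 6 h sample. Ints3 and Asun of Integrator rose by 0.55 and 0.54, and the cleavage factor Cpsf7 rose by 0.33. Cpsf2 of the cleavage and polyadenylation complex had 9.35, 9.922 and 8.806 TPM and then 5.863, 5.155 and 5.315 TPM, without overlap (log2 change −0.68 ± 0.09 (SE), limma adjusted p = 0.000785).

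**Figure D2:**
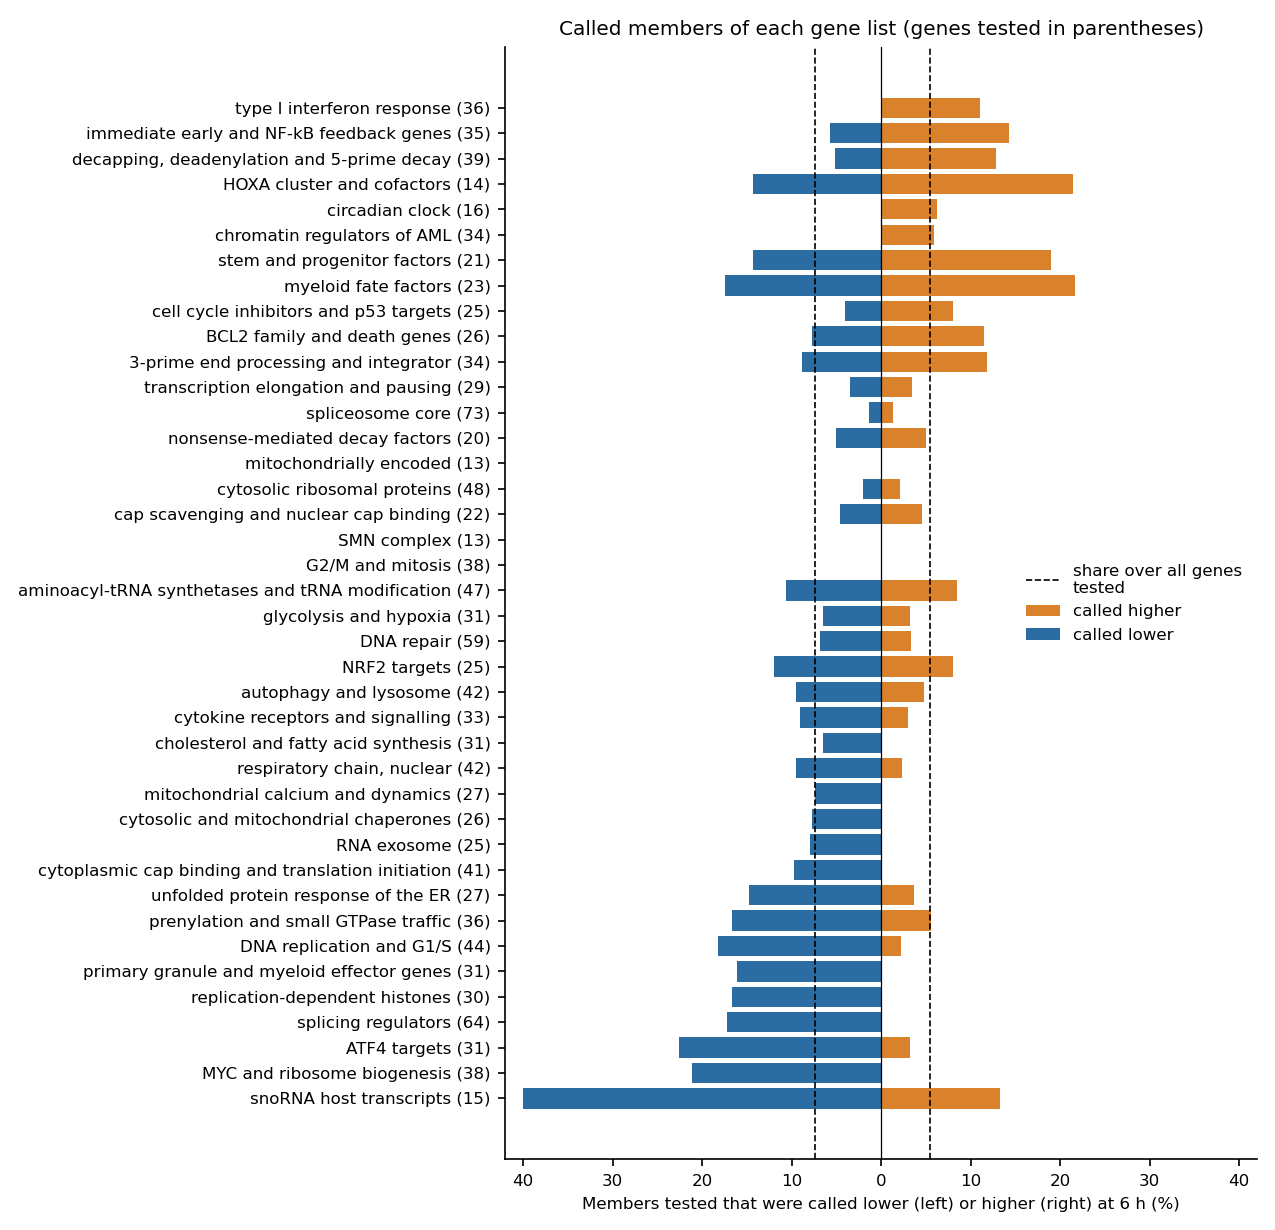
Percent of the tested members of each of 40 gene lists called lower (left, blue) or higher (right, orange) at 6 h, with the shares over all 12531 genes as dashed lines (7.37% lower and 5.49% higher). The snoRNA hosts have the longest bar to the left, 6 of 15; the SMN complex, the G2/M list and the mitochondrially encoded genes have none.

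Transcription factors of blood stem cells and myeloid fate were split between directions. Of 21 stem and progenitor factors, 4 (19%) were called higher and 3 (14.3%) lower. The shares over all genes tested were 5.49% higher and 7.37% lower. Erg, an ETS factor of stem cells and leukemia, had 17.58, 15.87 and 17.09 TPM at 0 h and 9.149, 9.72 and 9.104 TPM at 6 h (log2 change −0.79 ± 0.08 (SE), limma adjusted p = 0.000158). Fli1, its relative, had 80.73, 78.8 and 77.2 TPM and then 58.3, 58.21 and 56.94 TPM (log2 change −0.44). Both ETS genes were lower in every treated sample. Hhex and Lyl1, also factors of early blood cells, rose by 0.31 and 0.23. Of 23 myeloid fate factors, 5 (21.7%) were called higher and 4 (17.4%) lower. Cebpe, a factor of late granulocyte differentiation, had 20.26, 20.73 and 21.05 TPM and then 27.3, 26.45 and 28.01 TPM (log2 change 0.38), and Mitf fell by 0.53 on the log2 scale. Both lists depended on single samples: leaving out any 1 of the 6 gave 2 to 4 stem factors higher and 2 to 4 lower, and 3 to 5 fate factors higher and 1 to 3 lower. Of 31 granule and effector genes, 5 (16.1%) were called lower and 0 higher by limma, against 8 and 2 at an unadjusted p under 0.05. Ncf4, a subunit of the phagocyte NADPH oxidase, fell by 0.36, and Csf3r, the G-CSF receptor, by 0.33. The lower count of this list was 2 without 0 h sample c and 3 without 6 h sample a or b. Of 14 HOXA genes and cofactors, 3 (21.4%) were called higher and 2 (14.3%) lower. With any 1 sample left out these counts became 1 to 2 and 0 to 1. Pbx2, a cofactor of HOX proteins, had 28.65, 29.11 and 28.84 TPM and then 45.8, 40.66 and 40.94 TPM (log2 change 0.54 ± 0.06 (SE), limma adjusted p = 0.000254).

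Of 44 genes of replication and the G1/S transition, 8 (18.2%) were called lower and 1 (2.27%) higher, with a median log2 change of −0.17. Over all genes tested, 7.37% were called lower and 5.49% higher. The 2 E2F factors of that list that were called moved oppositely. E2f3 had 23.91, 20.87 and 13.6 TPM at 0 h and 7.773, 5.982 and 5.181 TPM at 6 h (log2 change −1.46 ± 0.24 (SE), limma adjusted p = 0.00374), with 0 h sample c well below its group. E2f2 had 16.38, 15.65 and 15.3 TPM and then 20.43, 22.53 and 21.46 TPM (log2 change 0.42). The clamp loader subunit Rfc2 fell by 0.44 and Uhrf1, a factor of maintenance DNA methylation, by 0.30. The lower count was 4 without 0 h sample b or c and 5 without 6 h sample a. Of 38 genes of G2 and mitosis, limma called 0 in either direction, with 2 lower at an unadjusted p under 0.05. Ptp4a3, a phosphatase, had 15.57, 15.65 and 16.22 TPM and then 5.936, 6.81 and 6.3 TPM, without overlap (log2 change −1.20 ± 0.07 (SE), limma adjusted p = 6.77e-06).

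Calls in the lists of cell death, stress and metabolism are to be read against 5.49% higher and 7.37% lower over all genes tested. Bcl2l11 (Bim), which triggers apoptosis, had 22.32, 22.86 and 24.96 TPM at 0 h and 34.11, 31.06 and 32.41 TPM at 6 h (log2 change 0.46). Bcl2l1 (Bcl-xL), which blocks it, had 10.89, 13.19 and 12.86 TPM and then 17.47, 17.64 and 16.2 TPM (log2 change 0.45). Both were higher in every treated sample. Of 26 genes of the BCL2 family and cell death, 3 (11.5%) were called higher and 2 (7.69%) lower. The lower count was 0 without any 0 h sample or without 6 h sample b, and 1 without 6 h sample a or c. Of 25 NRF2 targets and regulators, 2 (8%) were called higher and 3 (12%) lower. Nqo1, a quinone reductase, had 12.55, 12.73 and 12.89 TPM and then 7.043, 6.748 and 6.266 TPM (log2 change −0.84 ± 0.07 (SE), limma adjusted p = 7.54e-05), while Keap1, the repressor of NRF2, rose by 0.52 and Mafg, its partner, by 0.33.

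The median log2 change of 31 ATF4 targets, which serve amino acid supply and stress, was −0.15. Of these, 7 (22.6%) were called lower and 1 (3.23%) higher. At an unadjusted p under 0.05 these counts were 14 and 2. The lower count was 3 without 6 h sample a and 4 without 0 h sample b or 6 h sample c. The cystine carrier Slc7a11 was the call that rose, by 0.48, while the arginine carrier Slc7a1 fell by 0.45 and the mitochondrial enzyme Pck2 by 0.48. At 10 h the mean of Slc7a11 was 2.79 TPM, below all 3 untreated samples (4.759, 4.713 and 5.559 TPM). Of 42 nuclear genes of the respiratory chain, 4 (9.52%) were called lower and 1 (2.38%) higher. Sdhb of complex II had 60.78, 58.62 and 58.62 TPM and then 40.11, 41.81 and 43.86 TPM (log2 change −0.49 ± 0.04 (SE), limma adjusted p = 0.000121). Ndufv2 of complex I fell by 0.37. Their groups were apart, while limma called 0 of the 13 mitochondrially encoded genes, and 0 at an unadjusted p under 0.05. Of 36 genes of prenylation and small GTPase traffic, 6 (16.7%) were called lower and 2 (5.56%) higher. Rab5b of early endosomes, called lower, fell by 0.50. The lower count of that list was 3 without any 1 of the 6 h samples and 4 without 0 h sample a or c. Of 35 immediate early genes, 5 (14.3%) were called higher and 2 (5.71%) lower. Egr1 and Egr3, zinc finger factors induced by signalling, rose by 0.57 and 0.62. That list had 3 to 5 higher and 0 to 1 lower with 1 sample left out.

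The authors' deposited table listed 486 junctions for 6 h against 0 h, under 360 gene symbols, some of them several names of 1 entry, and 27 junctions had no gene name. It lists only junctions with a higher PSI at 6 h and a q under 0.05, so it cannot show losses. It gives group means only, so the spread between samples is unknown and no test could be added. Alternative 5′ splice sites were the commonest type with 190, followed by 107 retained introns, 74 alternative 3′ sites, 66 exon inclusions, 30 skipped introns and 12 skipped exons. The median PSI was 9% at 0 h and 28% at 6 h. The gain was at least 10 points in 285 junctions and at least 30 points in 64, and 97 began at 0%. The table marks 312 of the 486 as missing from its own annotation and predicts NMD for 158. Mean counts were under 20 reads at 6 h in 73 junctions.

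**Figure D3:**
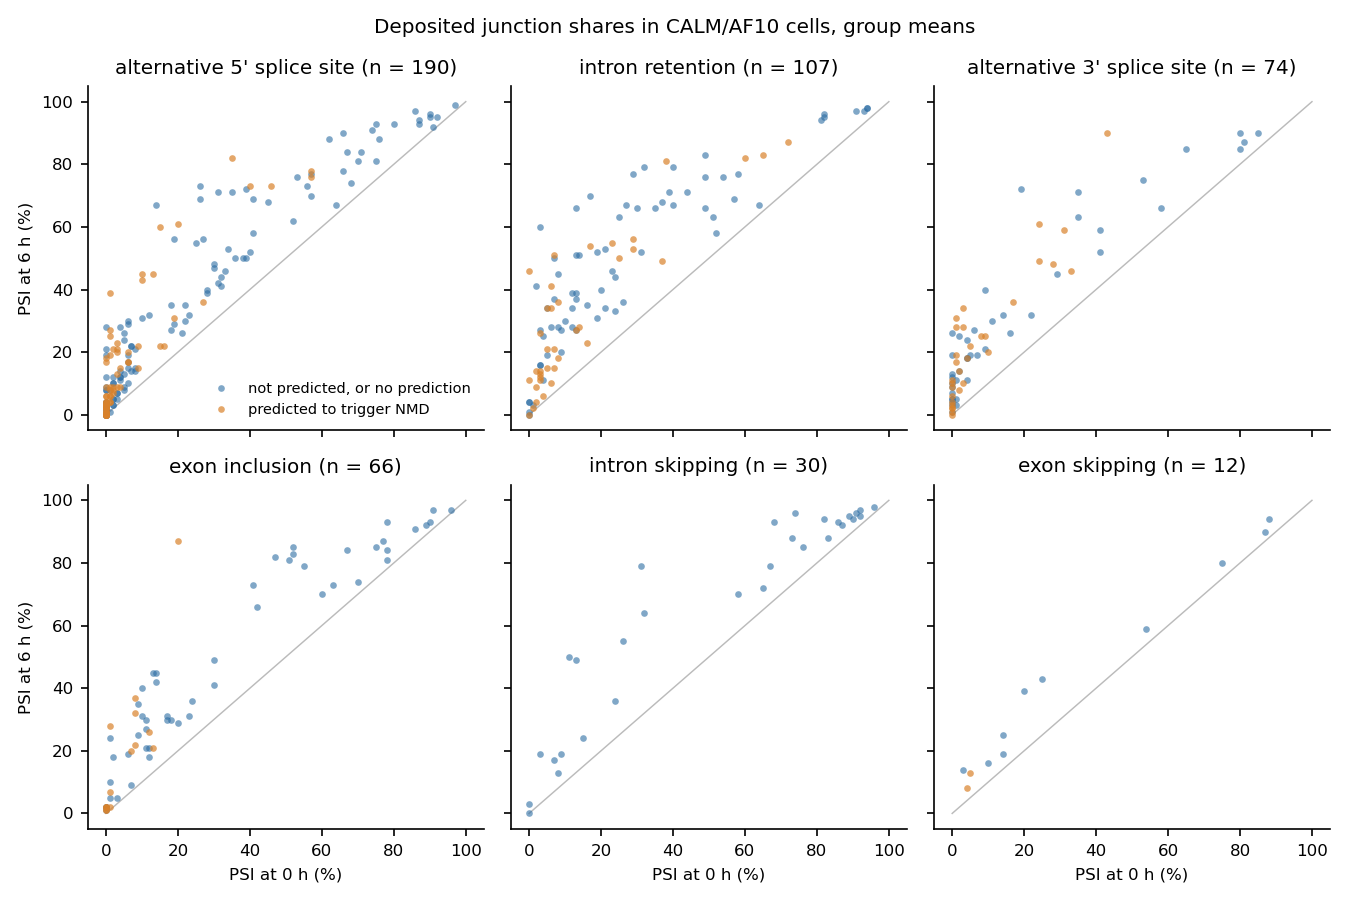
PSI of each listed junction at 0 h (horizontal) and 6 h (vertical), the authors' group means in percent, for 6 event types, with junctions predicted to trigger NMD in orange. Points lie above the diagonal because the table lists gains; many alternative 5′ sites start near 0%, and retained introns have a median gain of 19 points.

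Splice sites used more at 6 h often lay deep inside an intron. Of the 190 alternative 5′ sites, 145 lay downstream of the usual site, at a median distance of 2867 bases, and 45 upstream, at a median of 697 bases. Of 74 alternative 3′ sites, 71 lay upstream of the usual one, at a median of 8971 bases. Use of such a site can add an inner exon, or a longer exon, to the mRNA, but a single junction does not show which exon results. In 33 places the table listed junctions on both sides of such an inner exon, in 32 genes. Their lengths ran from 33 to 348 bases with a median of 101, 16 were not a multiple of 3, and 9 were not in GENCODE M21.

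The donor sites that gained use can be read where they fall inside an annotated exon. This was so for 31 of the 190, and all 31 had GT as the first intron bases, as did 97.0% of 41160 annotated donors read the same way. Of the 31, 23 had G as the last exon base. The sequences shown were read from GENCODE M21 transcripts (mm10) and give 24 bases around the donor, with the last 3 exon bases and the first 6 intron bases in capitals. They show how near or far these donors are from the usual form, CAG before GTAAGT. The first 4 are examples, with PSI values and distances given after them, and need not be typical of the 190. The pair from Srsf11 sets a donor that gained against the site it competes with.
Dnajb2: gccgggcagCGGGTGCTAggcggt
Taf1a: aaacaggaaAAGGTGTGTgagcct
Ankrd28: ggaaatgtgTTGGTAAGCtatgag
Stx17: cctaggcggGAGGTAAGGggctgc
Srsf11 gained: aatcgagtaCAGGTGATGaaatct
Srsf11 usual: catatgctgAAGGTTTGTgctttg

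The donor of Dnajb2 (chr1:75236526-75236549, plus strand) went from 6% to 29%, that of Taf1a (chr1:183389079-183389102, plus) from 62% to 88%, that of Ankrd28 (chr14:31780153-31780176, minus) from 57% to 78%, and that of Stx17 (chr4:48124947-48124970, plus) from 66% to 90%. The donors of Dnajb2, Taf1a and Stx17 lay 52, 68 and 108 bases upstream of the usual one and were in the authors' annotation. That of Ankrd28 lay 50162 bases downstream and was missing from it. The donor of Srsf11, an SR protein, lies at chr3:158023231-158023254 on the minus strand, 3482 bases downstream of the usual one at chr3:158026713-158026736. It went from 6% to 17% and was predicted to trigger NMD. Both Srsf11 sites hold GT, and the strength of the 2 donors was not scored. The Srsf11 gene level did not pass the test (log2 change 0.02, limma adjusted p = 0.892).

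Where the reading frame could be set from the annotation, some inner exons held a stop codon. Of 24 inner exons with a sequence, 12 had a single frame, and 5 of these held an in-frame stop: Srrt, Tial1, Dpy19l4, Cmpk1 and Sirpa. In all 5 both junctions were predicted by the authors to trigger NMD. Of the 7 with a frame and no stop, 2 had that prediction on both sides. The exon starts up to the stop (capitals) are shown for 4 of the 5, to show how early in the exon the frame ends. What the prediction rests on is not given in the sources used here. The Srrt stop runs across its junction and is not printed.
Dpy19l4: ttgtgaagttcgatgaacaaTGA
Cmpk1: agtgatatattcccattcTAA
Tial1: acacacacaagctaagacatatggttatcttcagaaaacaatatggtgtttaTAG
Sirpa: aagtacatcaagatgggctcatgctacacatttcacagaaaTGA

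The Dpy19l4 exon of 33 bases (chr4:11319786-11319818, minus) was joined upstream in 8% of reads at 0 h and 32% at 6 h, and downstream in 8% and 37%. The Tial1 exon of 60 bases (chr7:128458597-128458656, minus) rose from 7% to 20% upstream and from 12% to 26% downstream. Tial1 encodes an RNA-binding protein that itself promotes the use of weak 5′ splice sites. The exons of Cmpk1 (chr4:114971292-114971358, minus) and Sirpa (chr2:129608133-129608233, plus) reached only 2%. Dpy19l4 and Tial1 did not pass the test at the gene level, with log2 changes of 0.24 (limma adjusted p = 0.19) and −0.09 (limma adjusted p = 0.435).

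Srrt combined a fall in level with a shift to junctions predicted to trigger NMD. Its inner exon of 330 bases at chr5:137301318-137301647 on the minus strand is annotated in GENCODE M21. The donor of this exon went from 15% to 60%, with mean counts of 40 and 71 reads, and its acceptor from 3% to 28%, with 8 and 32 reads. Both were predicted to trigger NMD. The table also listed 4 retained introns of Srrt, from 3% to 12%, 2% to 14%, 4% to 11% and 13% to 27%, and 3 of these had the prediction.

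Rps6ka3, which encodes the kinase RSK2, had the largest gain of the table. An exon inclusion junction of this X-linked gene went from 20% to 87%, with mean counts of 26 and 30 reads. Its other 4 junctions went from 35% to 82%, from 24% to 61%, from 0% to 10% and from 0% to 9%, and all 5 were predicted to trigger NMD. The gene level was 23.74, 18.16 and 23.81 TPM at 0 h and 15.64, 17.95 and 18.24 TPM at 6 h. The groups overlapped, since 6 h sample c exceeded 0 h sample b, and the fall did not pass the test (log2 change −0.32, limma adjusted p = 0.122).

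Zbtb18, 1 of the 15 steepest rises, also changed its 5′ structure. A 3′ site in front of an inner exon of 118 bases (chr1:177443224-177443341, plus) went from 19% to 72%, and 2 donors went from 6% to 30% and from 7% to 22%. The table gave no NMD prediction for these, as they had no coding sequence or lay outside a transcript. Mthfd2l, another of the 15 rises, had a junction predicted to trigger NMD that went from 43% to 90%, with mean counts of 9 and 49 reads. Snhg3 had a skipped intron at 92% and then 97%. Tkfc, listed there under its older symbol Dak, had a skipped intron at 74% and then 96%. The table named no junction for the other 11 rises.

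Of the 15 falls, 6 held a listed junction, and in 4 it was predicted to trigger NMD. A retained intron of Mta1 went from 0% to 46%, an exon inclusion of Fam117a from 1% to 28%, an upstream 3′ site of Mcu, whose protein forms the channel for calcium entry into mitochondria, from 1% to 31%, and a downstream donor of Tbc1d5 from 1% to 27%. The counts behind these shares were small, with 6, 5, 8 and 6 reads on average at 6 h. The other 2 falls with a junction, Aatk at 0% and 21% and Pam at 4% and 24%, rested on 3 and 7 reads.

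Introns were retained more in genes with and without a change in level. Lrrc8d, a subunit of volume-regulated anion channels, went from 13% to 66%, and its level rose by 0.54. Keap1 went from 40% to 79% with a rise of 0.52, and Tet3, an oxidase of methylated DNA, from 25% to 63% with a rise of 0.47. Ankrd40 went from 7% to 51% with the NMD prediction, and its level fell from 18.41, 18.88 and 20.2 TPM to 12.84, 13.55 and 12.05 TPM. Tnpo2, a nuclear import receptor, went from 32% to 79%, and its log2 change was −0.14 (limma adjusted p = 0.151). Mbtd1 went from 17% to 70% on a mean count of 28 reads, Rffl from 7% to 50% and Zdhhc16 from 13% to 51%, and none of these 3 passed the test at the gene level. An exon of the same gene in GENCODE M21 spans the boundary in 39 of the 107 entries, Keap1 and Ankrd40 among them, so that reads there need not come from an unspliced intron.

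Other junctions lay in the splicing and decay machinery itself. Hnrnpf had retained introns at 19% and then 52% and at 21% and then 34%, the second under an exon of 4933440N22Rik on the other strand. Hnrnpr had an exon inclusion at 41% and then 73% and donors at 27% and then 56% and at 12% and then 32%. A junction of Luc7l2, a component of the U1 complex that reads 5′ splice sites, went from 28% to 48% with the NMD prediction. Both junctions around an exon of 57 bases in Hnrnpd, an AU-rich element binding protein, gained 10 points on over 1000 reads, from 60% and 63% to 70% and 73%. The kinase gene Clk2 retained an intron at 13% and then 27%. None of these 5 genes passed the test of gene level.

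In decay genes, Edc3, an enhancer of decapping, gained an inner exon of 135 bases at chr9:57712341-57712475 (plus) that is not in GENCODE M21. Its acceptor went from 0% to 19% and its donor from 1% to 24%, on 13 reads each. Cnot6, a deadenylase, had a 3′ site at 4% and then 18%, and the NMD factor Upf2 a donor at 4% and then 14%. The levels of Edc3, Cnot6 and Upf2 did not pass the test, with log2 changes of 0.49, −0.26 and −0.02. Cpsf7 retained an intron at 9% and then 27%, and its level was called higher. Snhg5 skipped an intron at 26% and then 55%. Ksr1, a scaffold of the MAP kinase cascade, had a donor at 1% and then 39% with the NMD prediction, and its level fell by 0.74 on the log2 scale.

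**Figure D4:**
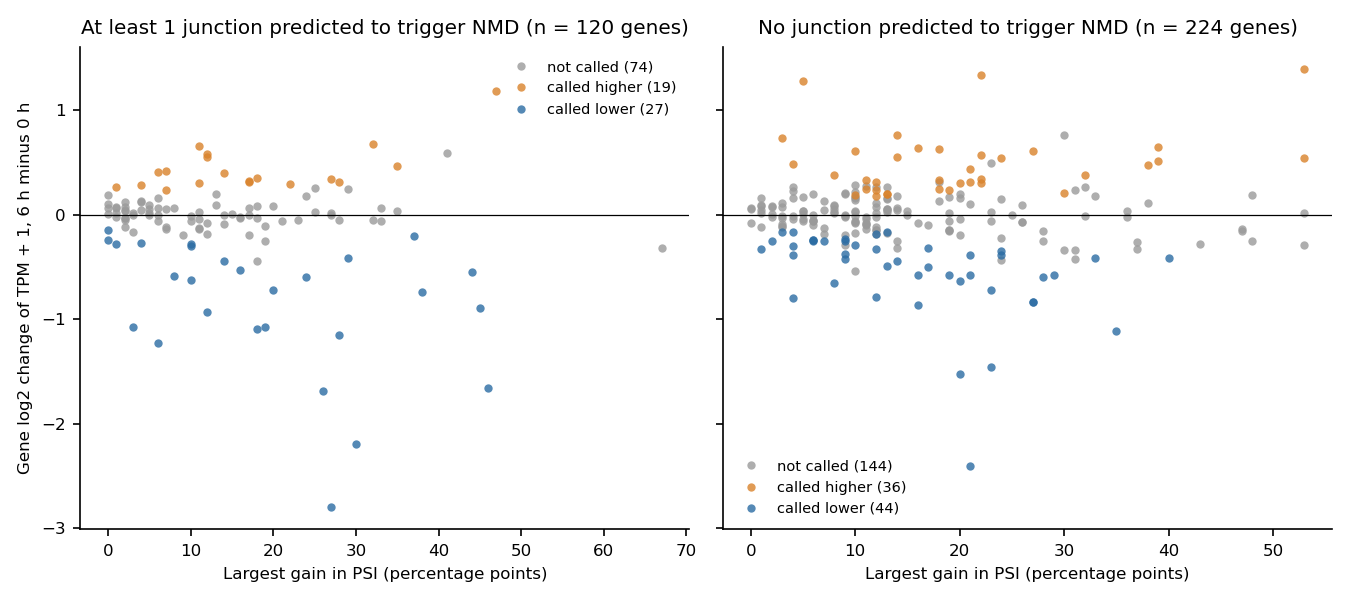
Log2 change of each tested gene at 6 h against its largest listed gain in PSI (percentage points), for genes with a junction predicted to trigger NMD (left, 120 genes, the largest such gain) and without (right, 224 genes), colored by the limma call. Called falls and called rises occur in both panels, 27 and 19 on the left and 44 and 36 on the right.

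Genes with a listed junction were called more often in both directions than other genes. Of 344 such genes tested, 55 (16.0%) were called higher and 71 (20.6%) lower, against 5.19% and 7.0% of 12187 genes with no listed junction. Among 120 with an NMD prediction, 15.8% were higher and 22.5% lower, and among 224 without it 16.1% and 19.6%. With an NMD junction that gained at least 20 points, 6 of 34 were higher and 12 lower, and with smaller gains 13 of 86 and 15. The median log2 change was −0.05 and −0.0024 in those groups. Junctions and gene levels come from the same libraries, and the table lists a junction more readily where reads are many, so these shares are a description.

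Most of the steep changes were called in normal GMP too, where 28% of 13610 genes were called higher and 24.6% lower. These GMP calls come from the limma fit over 18 samples, with a spread pooled over both cell types. The CALM/AF10 calls come from the fit over 9 samples, so the shares called in the cell types are not like for like. Of the 15 falls, 14 were called lower in GMP, and of the 15 rises, 14 were called higher. The 6 h change of GMP was subtracted from that of CALM/AF10 cells and tested as an interaction in limma over 18 samples, where 39.7% of the genes passed, 16.8% more positive and 22.9% more negative in CALM/AF10 cells. The difference passed for 13 of the 15 falls, each steeper in CALM/AF10 cells, and for 8 of the 15 rises, 5 steeper and 3 less steep. These genes were picked for their change in CALM/AF10 cells, which favors a steeper change there.

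**Figure D5:**
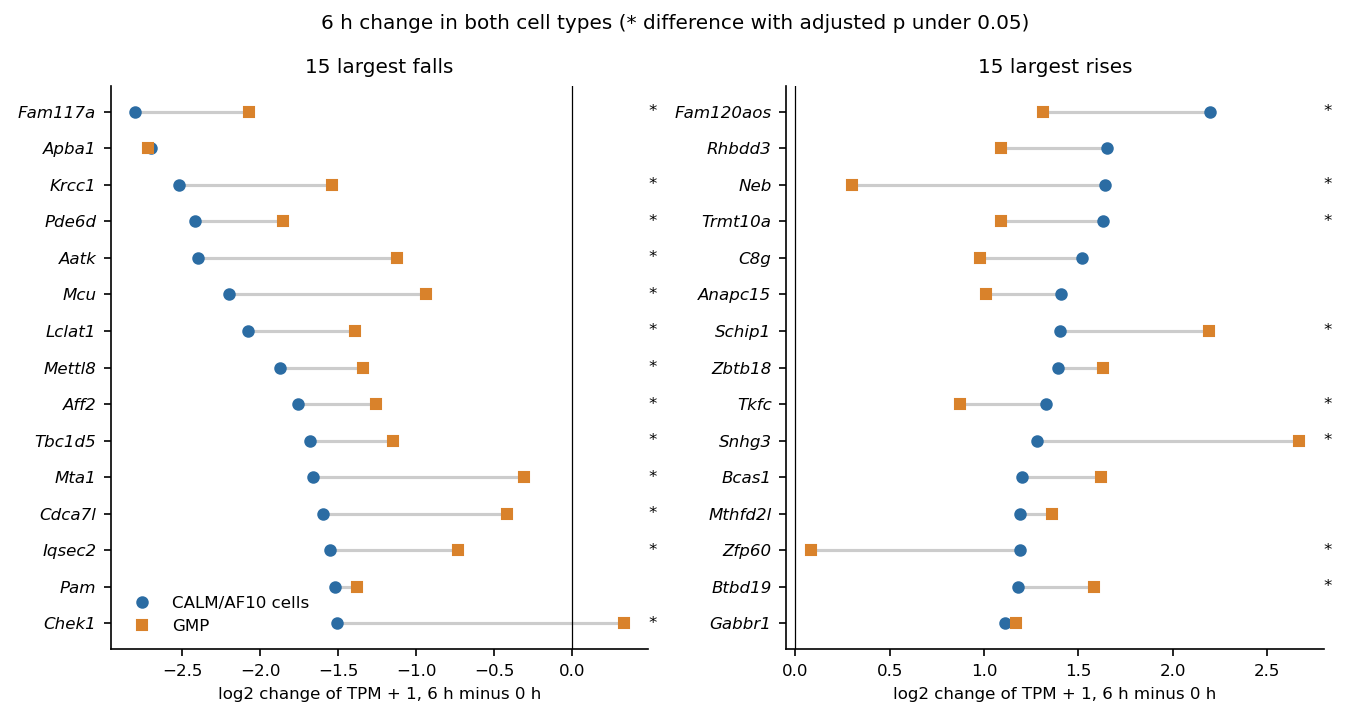
Log2 change at 6 h of the 15 falls (left) and 15 rises (right) in CALM/AF10 cells (blue circles) and GMP (orange squares), with an asterisk where the difference had an adjusted p under 0.05. Chek1 lies on opposite sides of 0 in the 2 cell types, and Snhg3 and Schip1 rose more in GMP.

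Chek1 was the fall that GMP did not share. Its mean was 9.57 TPM in GMP at 0 h and 12.2 TPM at 6 h (log2 change 0.33, limma adjusted p = 0.145), and the difference was −1.84 (limma adjusted p = 3.8e-05). Mta1 went from a mean of 80.2 to 64.3 TPM in GMP, and its difference was −1.35 (limma adjusted p = 2.64e-07). Apba1 did not differ past the threshold, with a log2 change of −2.72 in GMP and a mean of 8.05 TPM that became 0.375 TPM. Among rises, Zfp60 was not called in GMP (log2 change 0.08), and Neb was low there, with a mean of 0.276 TPM at 0 h. Snhg3 rose from a mean of 193 TPM to 1210 TPM in GMP, a steeper rise than in CALM/AF10 cells (difference −1.39, limma adjusted p = 3.16e-05).

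Several genes moved in opposite directions in the 2 cell types. Bcl2l11 was called higher in CALM/AF10 cells and lower in GMP, from a mean of 24.6 to 13.0 TPM (difference 1.33, limma adjusted p = 1.36e-05). Cebpe, E2f2 and Egr3 did the same, with differences of 1.21, 1.23 and 1.48. Slc7a1, Snhg5, Nqo1 and Ncf4 were called lower in CALM/AF10 cells and higher in GMP, with differences of −1.50, −1.11, −1.30 and −0.81. Nqo1 had a mean of only 0.457 TPM in GMP at 0 h, where the pseudocount weighs most. E2f3, Erg and Cpsf2, called lower in CALM/AF10 cells, were not called in GMP, and their differences of −1.73, −0.92 and −0.71 passed the test. The Dcps difference did not (0.24, limma adjusted p = 0.262), and Dcps had a mean of 45.0 TPM in GMP at 0 h and 44.0 TPM at 6 h.

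Few junctions were listed in both cell types. The GMP table for 6 h held 291 junctions, and 31 had the same coordinates, which is 6.38% of the 486 of CALM/AF10 cells and 10.7% of the 291. Among them were the Zbtb18 3′ site (19% to 72%, and 15% to 59% in GMP), the Rps6ka3 3′ site (24% to 61%, and 6% to 48%), the Fam117a exon (1% to 28%, and 0% to 9%), the Zc3h4 donor (26% to 69%, and 20% to 36%), and both Hnrnpd junctions. Fam117a thus gained the same junction in both cell types, and its level fell in both (log2 change −2.80 and −2.07). A junction missing from a table may have been too thinly covered, and absence from the GMP table was not tested. The Dcps boundary was not among the 31.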

How the data were processed

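Total RNA (RNeasy Mini Kit) was made into libraries with the Ovation Mouse RNA-Seq System (NuGEN) and sequenced on a NextSeq, per the labels. STAR and mm10 are named in the submitters' processing notes, without roles. The authors deposited TPM values per gene for each sample, which sum to 1000000 in each, so depth is unknown. They also deposited, per the file headers, junction tables of group means: a q-value for each junction, its PSI in percent, the log2 of an odds ratio, and a mean read count, treated here as a score because it is averaged and rounded. Values at 10 h came from the same gene table.

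TPM was transformed to log2(TPM + 1) and fitted with limma 3.58.1 in R 4.3.3, with a mean-variance trend. The fit covered the 9 CALM/AF10 samples, and 18 samples for the GMP calls and the difference from GMP. Each gene table was set only against itself. Genes needed 1 TPM in 3 of the 6 samples at 0 h and 6 h, of either cell type in the fit over 18. P-values were adjusted by Benjamini-Hochberg. The fit over the 9 CALM/AF10 samples was tested on simulated data, and the fit over 18 was not. The members, the 40 gene lists and the 7 marker lists were chosen with earlier results of these data known. Genes were named by rule: the 15 largest called rises and falls with a mean of at least 5 TPM in the higher group, up to 6 members per list, and genes with the largest junction gains. The rises and falls also needed groups without overlap. From these, 140 genes with names of predicted genes, clones, pseudogenes or antigen receptor segments were left out. Of the 198 genes that the rule gave, the text names mainly genes whose call held in every alternative, a choice made after their values were seen. Inner exon, donor and boundary positions were compared with GENCODE M21 and sequences read from its transcripts. Older symbols in the junction table were matched to the gene table through RefSeq synonyms, which added 3. Sequences from chromosome 18 were not used here. Alternatives were other pseudocounts, filters, scalings and samples in the fit, and leaving out each sample. The table columns carry no replicate numbers, so samples are called a, b and c in column order.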

Additional observations from a re-analysis of the deposited data

Results flagged for a closer look

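Of 104 named genes with a tested difference between the 6 h change in CALM/AF10 cells and that in GMP, 61 passed the threshold of an adjusted p under 0.05 in the limma interaction, against 39.7% of all genes tested. In 40 the change was more negative in CALM/AF10 cells and in 21 more positive, against 22.9% and 16.8% of all genes tested. Many of the 104 were named for their change in CALM/AF10 cells, which enters the difference. That choice favors a higher share than over all genes, so no conclusion is drawn from it. Values are the log2 change in CALM/AF10 cells minus that in GMP.

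Chek1 differed by −1.84, E2f3 by −1.73, Bcl2l1 by −1.54, Slc7a1 by −1.50, Nqo1 by −1.30, Ptp4a3 by −1.10 and Erg by −0.92. Bcl2l1 rose in both cell types and more in GMP. Among the steep falls, Mta1 differed by −1.35, Aatk by −1.29, Mcu by −1.25, Cdca7l by −1.18, Krcc1 by −0.98, Iqsec2 by −0.82, Fam117a by −0.73, Lclat1 by −0.69, Pde6d by −0.57, Tbc1d5 by −0.53, Mettl8 by −0.52 and Aff2 by −0.50.

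Among RNA genes, Snhg3 differed by −1.39, Snhg5 by −1.11, Dis3 by −1.04, Cpsf2 by −0.71, Srrt by −0.56, Hnrnpd by −0.54, Snhg9 by −0.41 and Zc3h4 by −0.27. Of the rest, Tnpo2 differed by −0.95, Ksr1 by −0.93, Ncf4 by −0.81, Schip1 by −0.80, Sdhb by −0.52, Pecam1 by −0.48, Btbd19 by −0.40, Mitf by −0.35, Pck2 by −0.34, Ndufv2 by −0.31, Csf3r by −0.28, Tet3 by −0.25 and Fli1 by −0.23.

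Positive differences were found for the transcription factors Egr3 (1.48), E2f2 (1.23), Cebpe (1.21), Egr1 (0.84), Pbx2 (0.61), Spi1 (0.25) and Lyl1 (0.22), and for Bcl2l11 (1.33) and Pf4 (0.58). RNA decay and splicing genes among them were Dcp2 (0.52), Zfp36l2 (0.44), Luc7l2 (0.44) and Parn (0.35). Steep rises among them were Neb (1.34), Zfp60 (1.11), Fam120aos (0.89), Trmt10a (0.55) and Tkfc (0.46). The remaining genes, chosen for their junctions, were Dpy19l4 (0.73), Kansl1l (0.59) and Mbtd1 (0.55).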

How the results depend on the processing

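No paired analysis was possible because the table columns carry no replicate numbers, so the replicate block was not run. Leaving out 1 sample gave 475 to 522 genes called higher and 610 to 711 lower, against 688 and 924. The fewest rises were called without 6 h sample a, and the fewest falls without 6 h sample c. A fit on fewer samples has less power by construction. The difference from GMP stayed within 1.5 times of its counts in every alternative run. Junctions with a gain of at least 10 points numbered 285 of 486; a q under 0.01 left 445 and at least 20 reads 413. Of 105 tested genes given a value or a call in the text, 85 were called, and 79 of these kept direction and call in every alternative run that gave a value. The other 6, Dis3, Dis3l2, Hoxa9, Hoxa10, Cd3d and Pecam1, kept their direction and lost the call in at least 1. The text names mainly genes whose call held in every alternative. The 79 of 85 therefore follows from that choice and does not describe called genes in general. Of the 20 not called, 4 were called in at least 1 alternative: Dcps, Hnrnpf, Hnrnpr and Rps6ka3. The adjusted p of Dcps ran from 0.0479 to 0.198 over other settings and from 0.0828 to 0.345 with 1 sample left out. Changes close to 0 turned sign without being called. Upf2 was 0.03 after median scaling, 0.02 after quantile normalization and −0.07 to 0.03 with 1 sample left out, above 0 without 0 h sample a or 6 h sample b. Srsf11 was −0.02 to 0.06, below 0 without 0 h or 6 h sample b. Mbtd1 was −0.03 to 0.09, below 0 without 0 h sample b or c or 6 h sample c. The causes were not tested. TPM keeps no depth, so no counting interval could be given.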
